A study of Homo sapiens with 15 samples.

Results

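The 9 enzymes ASNS, ASS1, ASL, ALDH18A1, PYCR1, PYCR3, PRODH, GPT2 and OAT make or break down asparagine, arginine, proline and alanine. They were chosen by name, and their probes were found through the RefSeq accession printed for each probe on the array, which gave 13 probes for the 9 genes among 26823 genes or transcripts tested. All 9 had a probe well above background on all 15 arrays. Cells of A2058, an established human melanoma line grown in EMEM with 10% FBS, were exposed for 8 hours to NP (3 μM), metformin (MET, 5 mM) or phenformin (PHEN, 50 μM), or to the vehicles DMSO and water (W), with 3 arrays per group from experiments that the series calls independent. NP stands for neopetasin in the title of the series, whereas the paper describes petasin at the same dose and time in the same cells, and the arrays do not show which of these compounds was used. NP was dissolved in DMSO and both biguanides in water, so each compound was compared with its own vehicle. All groups are 1 cell line at 1 time point. RNA of all cells in a culture went onto an array, so that a change in every cell and a larger change in some of the cells cannot be told apart.

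Asparagine synthetase (ASNS) moves the amide group of glutamine onto aspartate. Argininosuccinate synthase (ASS1) joins aspartate to citrulline and argininosuccinate lyase (ASL) releases arginine and fumarate from the product, and many melanomas have little ASS1 and depend on arginine from outside. Proline is made from glutamate by ALDH18A1, a mitochondrial synthase of pyrroline-5-carboxylate, and by the reductases PYCR1 in mitochondria and PYCR3 in the cytosol, while proline dehydrogenase (PRODH) takes proline apart and hands its electrons to the respiratory chain. Ornithine aminotransferase (OAT) connects ornithine with the same pyrroline-5-carboxylate, and the mitochondrial transaminase GPT2 exchanges amino groups between glutamate and alanine. NP, if it is a petasin, and the biguanides inhibit complex I of that chain, which restores the NAD needed to make aspartate. When amino acids run short, the transcription factor ATF4 is made and binds C/EBP-ATF response elements. The element in front of ASNS is the textbook case.

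The promoter table of RefSeq for GRCh38.p14 held windows for 5 of the 9 enzymes (7 windows of 300 bases, from 250 bases before the annotated start to 50 after it). PYCR1, PYCR3, PRODH and GPT2 had no window there. TGATGNAA, the core letters of a C/EBP-ATF response element, was searched on both strands, and 3.62% of all 35116 windows of this length held it. Of the 7 windows, 1 held it, and it belonged to ASNS. The match was TGATGAAA on the strand of the gene and began 68 bases before the annotated start. The 250 bases before the start are shown for ASNS, the enzyme with the largest difference after each compound, and for ALDH18A1, whose level differed least between the groups. Both lie on the minus strand and are written 5′ to 3′ in the direction of transcription, the ASNS stretch from chr7:97872409-97872658 and the ALDH18A1 stretch from chr10:95656712-95656961, and capitals mark the match.
ASNS: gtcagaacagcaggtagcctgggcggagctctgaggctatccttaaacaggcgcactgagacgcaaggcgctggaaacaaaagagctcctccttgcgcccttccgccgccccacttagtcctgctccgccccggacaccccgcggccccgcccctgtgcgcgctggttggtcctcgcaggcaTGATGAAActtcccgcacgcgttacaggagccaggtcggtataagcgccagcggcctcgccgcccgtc
ALDH18A1: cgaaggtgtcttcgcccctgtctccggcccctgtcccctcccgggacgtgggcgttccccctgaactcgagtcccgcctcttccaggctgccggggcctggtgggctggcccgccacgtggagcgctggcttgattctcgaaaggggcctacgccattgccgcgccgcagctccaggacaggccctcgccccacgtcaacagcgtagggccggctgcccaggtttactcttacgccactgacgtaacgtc
The match in ASNS is a description of the letters, and binding of ATF4 was not measured on these arrays. The windows of ALDH18A1, ASL, ASS1 and OAT did not hold these letters, which says nothing about the factor outside them.

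The 15 arrays came from 4 slides. DMSO and NP arrays shared slides 1 and 2, and water, MET and PHEN arrays shared slides 3 and 4, in both cases with replicates 1 and 2 on the first of these slides and replicate 3 on the other. No slide held both vehicles, so that vehicle and slide set cannot be told apart. On the DMSO and NP arrays 25798 to 31922 of the 58201 probes were well above background, and on the others 31406 to 45005. The extraction software marked the detection limit of the NP replicate 2 array (2.28) as out of range, and that of no other array. Of 10 melanocyte genes, MITF, SOX10, PMEL, DCT, S100B and PAX3 were well above background on all arrays at levels of 1.33 to 5.13, as were TFAP2A (0.27 to 1.02) and the dimmer MLANA (-3.15 to -0.10) and TYRP1 (-3.21 to -1.43), and TYR was on 13. The summed level of the 10 melanocyte genes ran from 6.12 to 6.43 on the log2 scale over all arrays. EPCAM and KRT5, markers of epithelial cells, were well above background on 0 arrays, ALB on 1, CD3E on 11, and PTPRC and PECAM1 on all 15, at dim levels of -2.90 to -1.29. All levels below are log2 intensities relative to the array's 75th percentile, and levels of different genes, which have different probes, were not compared.

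ASNS was higher after each compound than after its vehicle, and every array of a treated group was above every array of its vehicle. In the water set, ASNS read 3.54, 3.75 and 3.93 after water, 4.57, 4.86 and 5.11 after MET and 5.14, 5.20 and 5.34 after PHEN (replicates 1, 2 and 3). In the DMSO set it read 4.89, 5.07 and 5.99 after DMSO and 6.13, 6.41 and 6.68 after NP. DMSO replicate 3 stood well above the other DMSO arrays and close to the NP arrays. By group means the order was water (3.74), MET (4.85), PHEN (5.23), DMSO (5.32) and NP (6.41). Among neighbours in this order the PHEN and DMSO arrays overlapped. The order crosses the slide sets, where vehicle and slide set cannot be told apart. The log2 fold change was 1.09 for NP over DMSO (SE 0.16, 95% interval 0.74 to 1.44, 2.13-fold), with pair differences of 1.24, 1.34 and 0.69. It was 1.10 for MET over water (SE 0.16, 0.75 to 1.46, 2.15-fold) and 1.49 for PHEN over water (SE 0.16, 1.13 to 1.84, 2.80-fold). In limma's test adjusted over all features, the rise after PHEN passed (adjusted p = 0.0426), and the differences after NP (adjusted p = 0.0662) and MET (adjusted p = 0.168) did not.

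Of the arginine enzymes, ASS1 was higher after NP and ASL was not. ASS1 read 1.34, 2.01 and 2.10 after DMSO and 2.14, 2.94 and 2.75 after NP. The lowest NP array, replicate 1, was only just above the highest DMSO array, although each NP array was above the DMSO array of its own number by 0.65 to 0.93. In the water set ASS1 read 1.25, 1.44 and 1.51 after water, 1.57, 1.53 and 1.83 after MET and 1.72, 1.81 and 1.87 after PHEN, again without overlap with the vehicle, for MET by a gap of 0.02. The log2 fold change was 0.80 after NP (SE 0.16, limma's adjusted p = 0.221), 0.24 after MET (SE 0.16) and 0.40 after PHEN (SE 0.16), and none of these passed the test. ASL read 1.12, 1.07 and 0.95 after DMSO and 1.13, 1.14 and 0.93 after NP, so that these groups overlapped almost fully (0.02, 95% interval -0.17 to 0.21). It read 1.67, 1.61 and 1.46 after water, 1.82, 1.80 and 1.77 after MET and 1.77, 1.70 and 1.80 after PHEN. The differences of 0.22 and 0.18 were small, did not pass the test, and were the same way in all 3 pairs. Of all features, 21.7% after MET and 10.8% after PHEN were higher in all 3 pairs.

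PYCR1 was the proline enzyme that was higher after all compounds, by less than ASNS was. It read 4.72, 4.67 and 4.77 after DMSO and 5.05, 5.30 and 5.07 after NP. It read 4.55, 4.72 and 4.90 after water, 4.91, 4.91 and 5.13 after MET and 5.10, 5.06 and 5.19 after PHEN. The treated and vehicle groups did not overlap, but the highest water array and the lowest MET arrays differed by 0.01. The log2 fold changes were 0.42 after NP (SE 0.11), 0.26 after MET (SE 0.11) and 0.40 after PHEN (SE 0.11), all under 1.5-fold, with limma's lowest adjusted p of the 3 at 0.489. ALDH18A1, which supplies its substrate, had group means between 1.95 and 2.11, and neighbouring groups in this order all overlapped. Its log2 fold changes were 0.03 (95% interval -0.27 to 0.33), -0.06 and -0.01 after NP, MET and PHEN.

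PYCR3, the cytosolic reductase, did not share the pattern of PYCR1. It read 1.63, 1.54 and 1.37 after DMSO and 1.44, 1.43 and 1.24 after NP, and 2.37, 2.25 and 2.17 after water, 2.15, 2.13 and 2.19 after MET and 2.21, 2.25 and 2.26 after PHEN. Each treated group overlapped its vehicle, whereas every array of the DMSO set was below every array of the water set. The log2 fold changes were -0.14 (95% interval -0.35 to 0.06), -0.11 and -0.03 after NP, MET and PHEN. PRODH, which works in the opposite direction, varied most of the 9 in the DMSO set, with -2.38, -1.63 and -2.90 after DMSO and -2.41, -1.29 and -2.57 after NP. Replicate 2 was the highest array in both groups. In the water set PRODH stayed between -1.92 and -1.43, and its log2 fold changes were 0.21 (95% interval -0.45 to 0.88), -0.12 and -0.19 after NP, MET and PHEN. Without the array of NP replicate 2 the difference after NP turned to -0.10.

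GPT2 had the largest difference after NP beside ASNS. It read 1.80, 1.44 and 1.91 after DMSO and 2.56, 2.81 and 2.96 after NP, with a gap of 0.64 between the groups. It read 0.67, 0.93 and 0.92 after water, 1.00, 1.42 and 1.78 after MET and 1.52, 1.49 and 1.82 after PHEN. The MET arrays were spread widely and the lowest of them lay just above the water arrays, whereas all PHEN arrays were well above. The log2 fold change was 1.06 after NP (SE 0.15, 95% interval 0.73 to 1.40, 2.09-fold, limma's adjusted p = 0.0569), 0.56 after MET (SE 0.15, 0.22 to 0.89) and 0.77 after PHEN (SE 0.15, 0.44 to 1.10, adjusted p = 0.494), and none passed the test. OAT, the ornithine enzyme, read 4.45, 4.15 and 4.27 after DMSO and 4.25, 4.07 and 4.09 after NP. It read 3.51, 3.96 and 4.00 after water, 3.48, 3.81 and 3.86 after MET and 3.66, 3.92 and 3.80 after PHEN. OAT was lower in all 3 pairs after NP and after MET, as were 19.9% and 21.9% of all features. The groups overlapped, and the log2 fold changes were -0.15 (95% interval -0.50 to 0.19), -0.11 and -0.03 after NP, MET and PHEN.

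**Figure D1:**
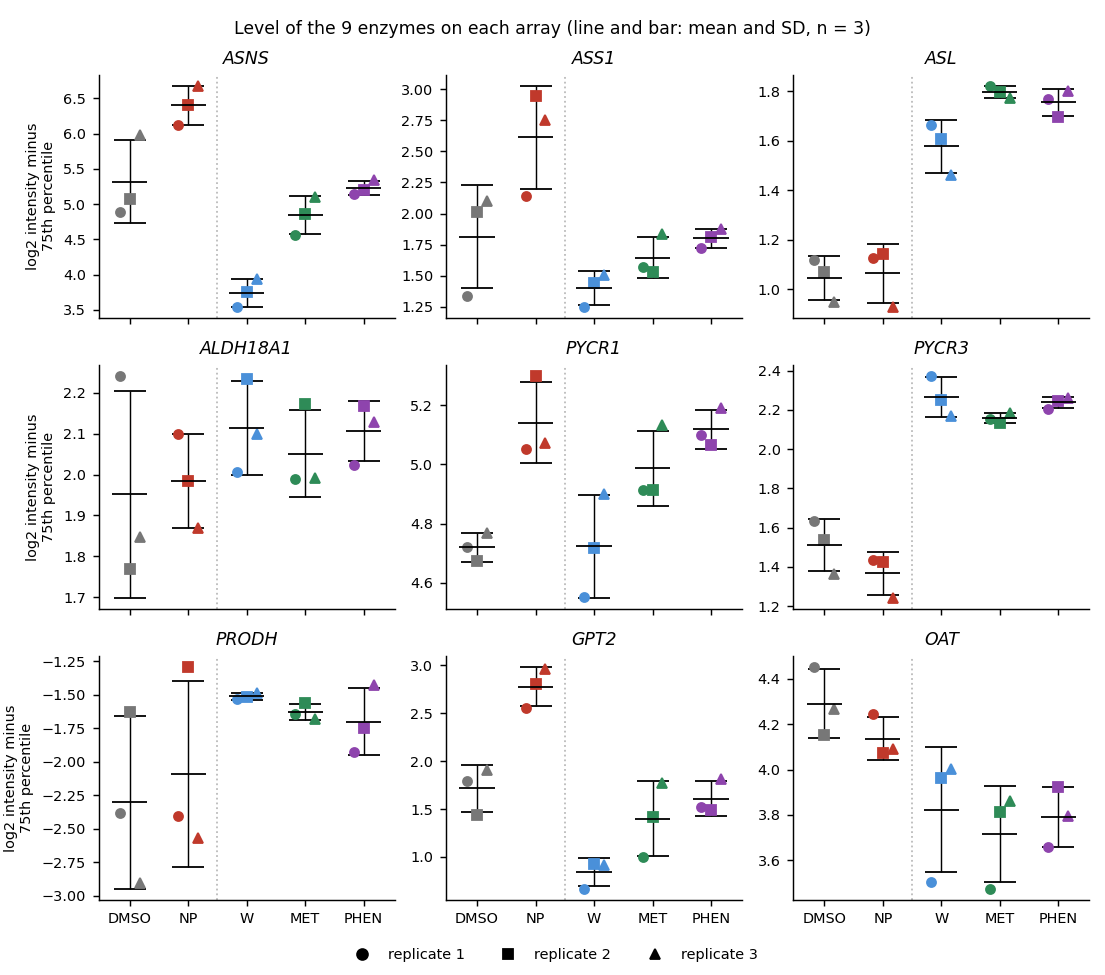
Level of each of the 9 enzymes on the 15 arrays, as log2 intensity minus the array's 75th percentile (vertical axes, a separate range per gene, not starting at 0), by group (horizontal axes). Symbols give the replicate, the lines and bars the mean and SD of 3 arrays, and the dotted line separates the slide sets. The ASNS, ASS1, PYCR1 and GPT2 arrays of NP all lie above those of DMSO, and PYCR3 lies lower on all arrays of the DMSO set (1.24 to 1.63) than of the water set (2.13 to 2.37).

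Over the 9 enzymes, NP treatment gave 0 calls, where a call is limma's adjusted p of at most 0.05 with a change of at least 1.5-fold either way. Of all 26823 features, 10 (0.0373%) were called, all higher. At an unadjusted p of at most 0.05, 4 of 9 enzymes passed (ASNS, ASS1, PYCR1 and GPT2) beside 4.78% of all features. These 4 were also those whose NP and DMSO arrays did not overlap with NP higher, beside 3.05% of all features, and none of the 9 was lower without overlap. The median log2 fold change of the 9 was 0.21, beside -0.02 over all features, and the 5 others lay between -0.15 and 0.21. Replicates of the same number within the DMSO set deviated together, for numbers 1 and 2 little more than with another number, and they also shared slides. With a slide term beside the replicate number, ASNS (limma's adjusted p = 0.0147) and GPT2 (0.0342) were called, beside 68 of all features (0.254%). Both were called with the replicate number counted within each slide set (0.0261 and 0.0434), where ASS1 was called too (0.0185), beside 61 of all features (0.227%). Without any replicate block ASNS and GPT2 had adjusted p of 0.415 and 0.163 in limma's test, beside 8 of all features called (0.0298%). Without the array of NP replicate 2, the log2 fold changes were 1.06 for ASNS, 1.01 for GPT2, 0.65 for ASS1 and 0.32 for PYCR1. In that fit limma's adjusted p was 0.342 for both ASNS and GPT2, and 0 of all features were called. The log2 fold changes of ASNS ran from 0.97 to 1.29 and those of GPT2 from 0.91 to 1.21 over 17 alternative settings. Of these settings 5 and 7 gave a call. Of all features, 0 were called without the filter on dim probes, with the compared groups alone and with the methods' t-test after adjustment. The same held with replicate 1, 2 or 3 left out.

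MET treatment gave 0 calls among the 9 and 0 of 26823 features over all (0%), while 682 features (2.54%) had an unadjusted p of at most 0.05. At that unadjusted level 4 of the 9 passed, namely ASNS, GPT2, ASL and PYCR1. The MET arrays lay above all water arrays in 5 of 9 (ASNS, ASS1, ASL, PYCR1 and GPT2), beside 3.27% of all features, and below all of them in 1, PRODH, beside 2.9%. The median of the 9 was 0.22, beside -0.00 over all features. ASNS was the enzyme past the fold threshold after MET, and its adjusted p ran from 0.0600 to 1.00 over 17 alternative settings.

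PHEN treatment gave 1 call among the 9, ASNS, beside 0.0261% of all features (7 of 26823). At an unadjusted p of at most 0.05, 4 of 9 passed (ASNS, ASS1, PYCR1 and GPT2), beside 2.45% of all features. The PHEN arrays lay above all water arrays in the same 5 enzymes that are named for MET, beside 3.32% of all features. The median of the 9 was 0.18, beside -0.05 over all features. The ASNS call held in 9 of 17 alternative settings, and its log2 fold changes over all 17 ran from 1.43 to 1.52. Among those that kept it were the slide term (limma's adjusted p = 0.00921) and the block within slide sets (0.0203). Slide as a random block (0.00701) and normexp (0.00493) kept it as well. In these 4 settings 15 (0.0559%), 9 (0.0336%), 14 (0.0522%) and 6 (0.0224%) of all features were called. The call was lost without the replicate block (limma's adjusted p = 0.290) and without the filter on dim probes (0.186). It was also lost in a fit of the water and PHEN arrays alone (0.686) and with the methods' t-test after adjustment (0.752). Leaving out replicate 1 (1.00), 2 (1.00) or 3 (0.0851) lost it too. So did leaving out the array of NP replicate 2, which is not in the comparison but enters the shared spread (0.0903). In each of these 8 settings 0 of all features were called in PHEN over water.

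**Figure D2:**
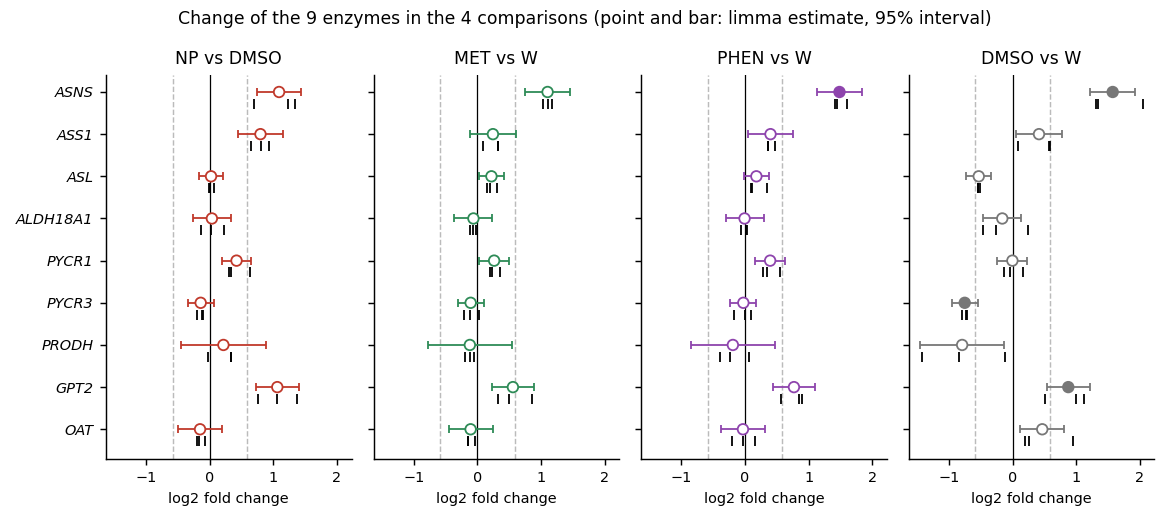
Log2 fold change of the 9 enzymes (horizontal axes) in NP over DMSO, MET over water, PHEN over water and DMSO over water. Circles and bars are limma's estimates and 95% intervals, filled circles passed adjusted p of at most 0.05 and the fold threshold (dashed lines, 1.5-fold either way), and the short vertical marks are the differences of the 3 replicate pairs. ASNS and GPT2 lie to the right in all 4 panels, and ASNS after PHEN (1.49) is the filled circle among the compounds.

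The effect of NP on each enzyme was set against that of each biguanide as a difference of the 2 fold changes, each over its own vehicle. The doses differ between the compounds, and 0 of 9 differences were called, beside 0 of 26823 features (0%) for either biguanide, with 769 features (2.87%) at an unadjusted p of at most 0.05 for MET and 657 (2.45%) for PHEN. For ASNS, NP minus MET was -0.01 (95% interval -0.51 to 0.48) and NP minus PHEN was -0.40 (-0.89 to 0.10). For ASS1, NP minus MET was 0.55 (0.04 to 1.06, unadjusted p = 0.0361 in limma's test) and NP minus PHEN 0.40 (-0.11 to 0.90). For GPT2 the values were 0.50 (0.03 to 0.98, unadjusted p = 0.0391 in limma's test) and 0.29 (-0.18 to 0.76). These 2 differences from MET did not pass after adjustment (limma's adjusted p = 1.00). For PYCR1 the values were 0.16 (-0.18 to 0.49) and 0.02 (-0.31 to 0.36). MET and PHEN are both biguanides, which carry different side groups. Their doses differ by design. PHEN was not tested against MET here, and their values over the shared water arrays stand side by side.

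More features were called between the vehicles than between any compound and its vehicle. In DMSO over water, 2782 of 26823 features (10.4%) were called, 771 higher (2.87%) and 2011 lower (7.5%), and the median of all features was -0.11, against -0.01 with quantile normalization. With slide as a random block, 222 features (0.828%) were called, so that the number of calls depends strongly on how the slides are treated. Higher features made up 27.7% of the 2782 calls. Their share was 39.3% with quantile normalization, 43.5% with normexp background correction and 38.1% in the authors' table. It was 48.0% without the filter on dim probes and 49.3% among probes above background on all arrays. Without the replicate block it was 33.8%, and with every probe as a feature of its own 27.1%. The mean of a gene's probes gave 22.4% and slide as a random block 21.2%. Of the 9 enzymes, ASNS (1.57, SE 0.16, limma's adjusted p = 0.00338) and GPT2 (0.88, SE 0.15, adjusted p = 0.00685) were higher on the DMSO arrays and PYCR3 was lower (-0.75, SE 0.09, adjusted p = 0.00338). The median of the 9 was -0.00. ASL was lower by a smaller amount (-0.53, SE 0.09, adjusted p = 0.00599), under the fold threshold. PRODH (-0.79, SE 0.30), OAT (0.47, SE 0.16) and ASS1 (0.42, SE 0.16) did not pass, and ALDH18A1 (-0.16) and PYCR1 (-0.00) were closest to 0. At an unadjusted p of at most 0.05, 7 of 9 passed, all but ALDH18A1 and PYCR1, beside 33.9% of all features. The arrays did not overlap in 3 of 9 with DMSO higher (ASNS, GPT2 and OAT), beside 9.73% of all features, and in 3 of 9 with DMSO lower (ASL, PYCR3 and PRODH), beside 20.5%. ASNS, GPT2 and PYCR3 kept their direction with quantile normalization and with normexp. All 3 calls were lost without replicate 1 (ASNS at an adjusted p of 0.108, PYCR3 0.108 and GPT2 0.114), without replicate 2 (0.111, 0.113 and 0.113) and in a fit of these arrays alone. In these fits 0 of all features were called as well, with 5357, 5699 and 4534 at an unadjusted p of at most 0.05. Without replicate 3 the 3 calls stayed, beside 4897 of all features (18.3%). The GPT2 call was also lost in limma's test with slide as a random block (adjusted p = 0.110). A slide term cannot be fitted here, because each slide holds 1 vehicle, and the part of the slides was not tested.

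The paper's methods set all compounds against DMSO. With DMSO in place of water, the biguanide comparison crosses the slide sets, and its values for the enzymes turned. ASNS became -0.47 for MET and -0.09 for PHEN, and GPT2 became -0.32 and -0.11. PYCR3 was called higher (0.65 and 0.73), as was ASL (0.75 and 0.71). These 2 of 9 stand beside 16.8% of all features called for MET (4496 of 26823) and 10.0% for PHEN (2689). Of the 9 enzymes, PYCR1 (0.27 and 0.40), ASL and OAT (-0.57 and -0.50) kept their sign for both biguanides. The rise of ASNS after PHEN is thus a rise over water, while the PHEN arrays overlapped the DMSO arrays.

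ASS1, PYCR1 and PYCR3 each had a second, dimmer probe that passed the filter. The second ASS1 probe gave nearly the same difference after NP (0.82, SE 0.23) as the first (0.80, SE 0.16), and 0.42 and 0.46 after MET and PHEN. In DMSO over water the ASS1 probes went opposite ways (0.42 for the first and -0.43 for the second), so that the direction of ASS1 between the vehicles depends on the probe. The second PYCR1 probe, designed on another transcript and well above background on 13 arrays, gave 0.11 (SE 0.21) after NP, 0.37 after MET and 0.36 after PHEN, and -0.71 for DMSO over water, where the first gave -0.00. The second PYCR3 probe gave -1.29 for DMSO over water, the same direction as the first. After NP it gave 0.33 (SE 0.32), and the array of NP replicate 2 read -1.49 against -2.98 and -3.17 for the others. The second PRODH probe was well above background on 0 of 6 arrays of the DMSO set and on 6 of the other 9 and was not tested.

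**Figure D3:**
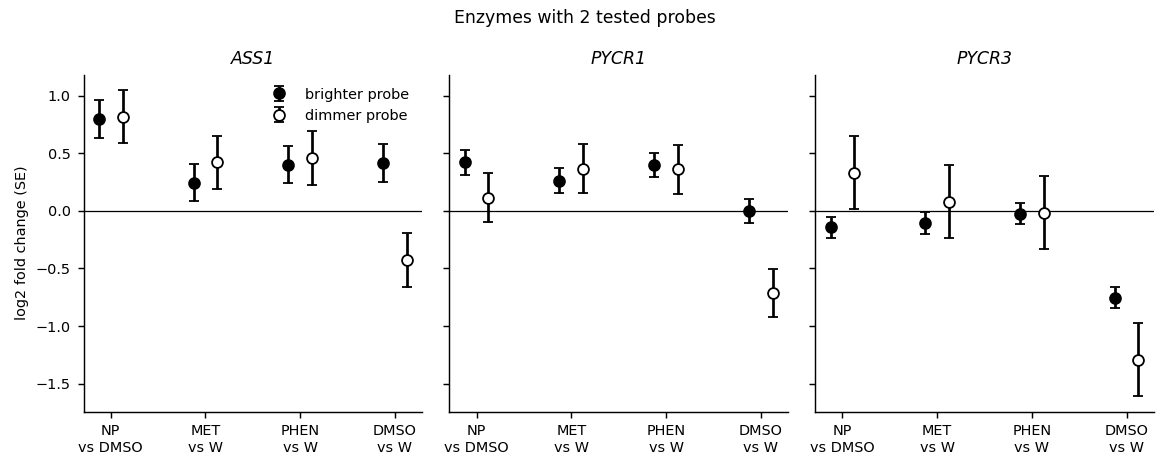
Log2 fold change with its SE (vertical axis) in the 4 comparisons (horizontal axis) for the enzymes with 2 tested probes. Filled circles are the brighter probe, which stands for the gene elsewhere, and open circles the dimmer one. The ASS1 probes lie together after NP (0.80 and 0.82) and on opposite sides of 0 for DMSO over water (0.42 and -0.43).

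Of 6 lists of genes from the same or neighbouring pathways, 0 genes were called after NP, MET or PHEN. Of the 6 genes of asparagine and aspartate, 0 were called in any of the 4 comparisons. GOT1, the cytosolic aspartate transaminase, differed by 0.22 after NP, 0.22 after MET and 0.23 after PHEN without passing the test, and the asparaginase ASPG (0.09, 0.25 and 0.20) and the aspartoacylase ASPA (-0.44, 0.01 and 0.11) did not pass either. Of 13 genes of arginine, the urea cycle, nitric oxide and creatine, 10 were tested (ARG1, OTC and NOS1 were not), and 0 were called after a compound. GATM, which starts creatine synthesis from arginine, read 0.36 after NP and -0.46 after MET. It was dim (group means of -3.97 to -3.49, well above background on 14 arrays), and its NP pairs were 0.0004, 0.19 and 0.90. The mitochondrial arginase ARG2 read 0.04 after NP and 0.42 after MET. NOS2, an inducible nitric oxide synthase, read -0.25 and -0.10. GAMT, which finishes creatine, was called lower in DMSO over water (-0.68, limma's adjusted p = 0.00476).

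All 11 polyamine genes were tested and 0 were called in the 4 comparisons, with differences of -0.22 to 0.23 after NP. The oxidase SMOX read 0.23 after NP, 0.16 after MET and 0.26 after PHEN, the oxidase PAOX -0.22, -0.14 and -0.11, and AZIN1, which protects ornithine decarboxylase, 0.20, -0.14 and -0.18. Of 9 genes of proline and glutamate, 7 were tested (PRODH2 and GLS2 were not) and 0 were called. The glutamate dehydrogenase GLUD2 read 0.10, 0.09 and 0.14, and glutamine synthetase, GLUL, -0.21, 0.24 and -0.14 with an SE of 0.33. The medians of the polyamine list (0.01, -0.04 and -0.01) and of the proline and glutamate list (-0.02, 0.03 and 0.05) after NP, MET and PHEN were near those of all features (-0.02, -0.00 and -0.05).

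PSAT1, the phosphoserine transaminase of serine synthesis, stood out among 8 genes of alanine and other transaminations, of which 6 were tested (AGXT2 and BCAT1 were not). It differed by 0.81 after NP (SE 0.12, limma's adjusted p = 0.0709), 0.37 after MET and 0.59 after PHEN, in all 3 pairs each time, without a call. In DMSO over water it was called higher (0.83, adjusted p = 0.00476), as GPT2 was. AGXT, a peroxisomal transaminase, read -0.77 after NP (SE 0.34), with pairs on both sides of 0. Of 10 carriers of these amino acids, 9 were tested (SLC25A2 was not) and 0 were called after a compound. The neutral amino acid carriers SLC1A4 (0.51, 0.23 and 0.33) and SLC1A5 (0.46, 0.38 and 0.41) were higher after NP, MET and PHEN without passing the test. The arginine carrier SLC7A1 read 0.34, 0.25 and 0.33 and SLC38A2, a carrier of small neutral amino acids, 0.46, 0.13 and 0.23. Both were called higher in DMSO over water (0.71, limma's adjusted p = 0.04999, and 0.86, adjusted p = 0.0148).

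**Figure D4:**
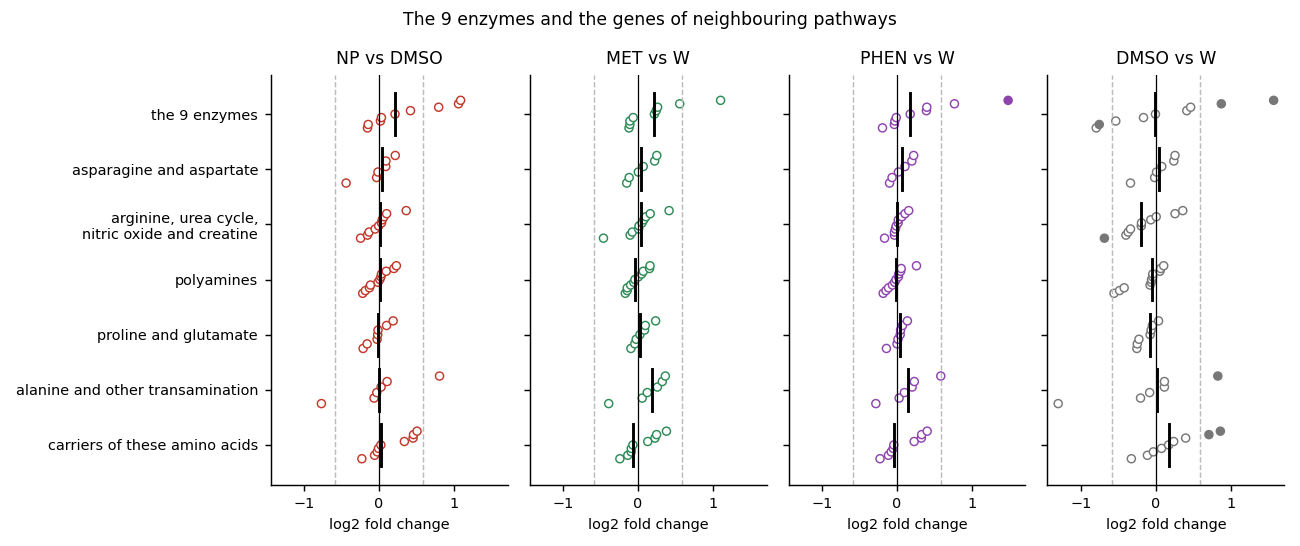
Log2 fold change (horizontal axes) of the 9 enzymes and of the genes of 6 neighbouring lists (rows) in the 4 comparisons. Each circle is a gene, filled where called, black bars are list medians, and dashed lines mark 1.5-fold either way. After the 3 compounds ASNS in PHEN over water is the filled circle, and the list medians lie within -0.07 to 0.22.

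Of 8 genes of the ATF4 response (ATF4, DDIT3, TRIB3, ATF3, CEBPB, SESN2, NUPR1 and CHAC1), 8 were higher in all 3 pairs after NP, after MET and after PHEN. Of all features, 13.9%, 21.7% and 10.8% were. After NP, TRIB3 (1.00, limma's adjusted p = 0.0412), SESN2 (1.16, 0.0266) and NUPR1 (1.69, 0.0266) were called, after MET 0 were, and after PHEN SESN2 (0.98, 0.0426), NUPR1 (1.57, 0.0440) and CHAC1 (2.39, 0.0426) were. This list was written with results of these arrays known and is not independent evidence of its direction. ATF4 itself read 0.60 after NP, 0.52 after MET and 0.56 after PHEN (SE 0.16) without passing the test. In DMSO over water, NUPR1 (1.13, adjusted p = 0.00714) and CHAC1 (1.17, adjusted p = 0.0232) were called, as ASNS and GPT2 were, whereas TRIB3 (0.14) and SESN2 (0.11) were not.

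With the mean of the slide set taken from each array, the correlation over 15 arrays was 0.91 between ASNS and GPT2, 0.91 between PYCR1 and GPT2, 0.88 between ASNS and PYCR1 and 0.80 between ASNS and ASS1. It was -0.64 between ASNS and PYCR3 and -0.17 between ASNS and OAT. The differences between treated and vehicle groups are part of these values, which restate them and are given as descriptions.

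The genes most like each enzyme in level over the 15 arrays were sought among 13896 genes with a symbol that were above background on all arrays. These correlations hold the step between the slide sets as well as the treatments, so that they are given a second time with the mean of the slide set removed, a step added after the values were seen. ASNS was most like CBS (r = 0.98), FLJ43315 (0.97) and PSPH (0.97), and after removal most like SLC6A9 (0.97), CBS (0.96) and SARS1 (0.96). GPT2 was most like PSAT1 (0.99), BLTP3A (0.98) and CEBPG (0.98), and after removal most like PSAT1 (0.98), BLTP3A (0.97) and XBP1 (0.97). PYCR1 was most like TRIB3 (0.92), XBP1 (0.90) and RPS6KA2 (0.90), and after removal most like TRIB3 (0.97), CEBPG (0.96) and SLC7A11 (0.94). CBS for ASNS, PSAT1 and BLTP3A for GPT2 and TRIB3 for PYCR1 were among the first 3 in both versions. ASS1 was most like TMEM267 (0.92), IL20RB (0.91) and TUBE1 (0.91), and after removal most like TMEM267 (0.90), BMAL1 (0.89) and MT2A (0.88). For PYCR3 all 3 names changed, from SLC25A11, DUS3L and MRM2 (0.98 each) to OSR2 (0.90), SNORD86 (0.87) and ITPRIPL1 (0.86). ASL was most like ITGA5 (0.99) and FBXW5 (0.99), which read 0.89 and 0.90 after removal. OAT was most like SMARCAD1 (0.98), G3BP2 (0.97) and GOLM1 (0.97), and after removal SMARCAD1 (0.95), GCSH (0.94) and GOLM1 (0.94). ALDH18A1 was most like TMEM14B (0.88), IMMP2L (0.85) and ALDH7A1 (0.85), and after removal TMEM14B (0.86), CCDC50 (0.86) and PAPSS1 (0.86). PRODH was most like LINC02882 (0.96), MATN3 (0.95) and RBKS (0.95), and after removal MATN3 (0.95), LINC02882 (0.94) and LIF (0.92).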

How the data were processed

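Total RNA of A2058 cells was labeled with a single dye (Cy3) and hybridized to Agilent human arrays of 15 samples. For each array the authors deposited spot intensity values that the extraction software had corrected for background (version 10.7.3.1 in the file headers, 9.1 in the submitters' processing notes), with probes designed on hg19. The authors also deposited normalized log2 values of all arrays. In these the 75th percentiles were aligned and values under 4 were raised to 4, which held for 31.3% to 50.8% of an array. The other values followed the scanner intensities (r of at least 0.99999) in scale and direction.

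Control spots were left out and outlier spots were set to missing (1853 of 913515 spots). Repeated spots were averaged per probe, and the array's 75th percentile was subtracted on the log2 scale. Among the features kept, 223 of 402345 values were missing. No spot was saturated. Of 33080 probes with a RefSeq-like accession, 31100 matched a symbol. The brightest probe stood for a gene, chosen among 32911 probes well above background in every array of 1 or more groups, with values on at least 8 arrays. The 26823 features (16580 with a symbol, 19466 above background on all arrays) were fitted with limma 3.58.1 in R 4.3.3 (statmod 1.5.0, data.table, version 1.17.8), with 5 groups and the replicate number as a block. Tests were two-sided, and p-values were adjusted over all features by the Benjamini-Hochberg method. The replicate number was taken as a block over all groups because the methods name a paired test, and the number of arrays limits the precision. Deviations from the group means of same-numbered samples correlated at 0.31 to 0.65 for NP and DMSO, 0.44 to 0.86 for MET and W and 0.24 to 0.40 for PHEN and W. They correlated at -0.19 to -0.02 for DMSO and W, so that the numbers do not pair samples across the slide sets. Within the water set the highest correlation with another number was lower each time (-0.33 to 0.13). For NP and DMSO it was 0.29 beside 0.31 for replicate 1, 0.24 beside 0.33 for replicate 2 and -0.40 beside 0.65 for replicate 3. Replicates 1 and 2 share a slide, so that pairing by number and sharing a slide cannot be told apart there. The block within each set, an alternative, is closer to that pairing, and its calls stand beside those for NP. The fit was tested on simulated data. Python 3.11.15, pandas 2.3.3, numpy 2.4.6 and matplotlib 3.10.9 were used for the rest.

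The members and lists were chosen with earlier results of these data known. Text names all 9 enzymes, and from each neighbouring list the genes called in any comparison and the 2 with the largest difference in each of NP over DMSO and PHEN over W, ATF4 and the called genes of its list, and the 3 genes most correlated with each enzyme. Of these, 2 genes are not reported here. Alternatives were the block (none, slide, within slide set, random slide), normexp (offset 50), the authors' table, quantile normalization, the filter, the choice of probes, the groups fitted, the methods' t-test, DMSO as comparator, and samples left out.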

Additional observations from a re-analysis of the deposited data

How the results depend on the processing

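Of 972 values for the enzymes under 19 alternatives, 890 kept direction and side of the threshold, 21 lost and 20 gained a call, and 41 turned. The cause was not tested. Enzymes called in NP over DMSO numbered 2 with a slide term, a random slide block, normexp or probes above background on all arrays, 3 with the replicate block within slide sets or the methods' t-test at unadjusted p, and 1 with quantile normalization or the mean of a gene's probes, against 0. All features called there numbered 68 with the slide term (0.254%), 72 with the random slide block (0.268%) and 61 within slide sets (0.227%). They numbered 22 with normexp (0.082%) and 32 among probes above background on all arrays (0.164%). With quantile normalization they numbered 17 (0.0634%) and with the mean of a gene's probes 18 (0.0671%). The methods' t-test after adjustment called 0, and the main fit 10 (0.0373%). The methods' t-test at unadjusted p called 215 of all features there (0.806%). In MET over W, 1 enzyme was called with that test (122 of all features, 0.456%) and 2 against DMSO (16.8% of all features). In PHEN over W, 0 were called without the replicate block, without a filter on dim probes, with the compared groups alone, with the methods' t-test after adjustment, without NP replicate 2 (chosen after seeing the data) and without replicate 1, 2 or 3 (0 to 0), and 2 with the methods' t-test at unadjusted p (160 of all features, 0.597%) or against DMSO (10.0%). Where 0 enzymes were called in PHEN over W, 0 of all features were called too. In DMSO over W, 0 enzymes were called with the compared groups alone and with the methods' t-test after adjustment, and 0 to 3 without a replicate number. The 3 came without replicate 3, where 18.3% of all features were called. The slide term and the block within slide sets were not run for DMSO over W, which they cannot estimate. The median of the enzymes became -0.16 in DMSO over W with the mean of a gene's probes and 0.10 in MET against DMSO.

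Signs turned mostly against DMSO and for values near 0. Against DMSO, MET gave ASNS -0.47, ASS1 -0.17, ALDH18A1 0.10, PYCR3 0.65, PRODH 0.67 and GPT2 -0.32, and PHEN gave ASNS -0.088, ASS1 -0.014, ALDH18A1 0.16, PYCR3 0.73, PRODH 0.60 and GPT2 -0.11. With the mean of probes, PYCR3 became 0.094 in NP over DMSO, 0.11 in NP minus MET and 0.11 in NP minus PHEN, PYCR1 became -0.048 and -0.11 in these differences, and ASS1 became -0.0058 in DMSO over W. With normexp, ALDH18A1 became 0.010 in PHEN over W, PYCR1 0.031 in DMSO over W, and PYCR3 0.057 and OAT 0.026 in NP minus MET. With quantile normalization, PYCR1 became 0.081 in DMSO over W and ASNS 0.043 in NP minus MET, and in the authors' table ALDH18A1 became 0.0085 in PHEN over W. With a replicate number or NP replicate 2 left out, ASL ranged from -0.019 to 0.040, ALDH18A1 from -0.059 to 0.12 and PRODH from -0.097 to 0.33 in NP over DMSO. In PHEN over W, ALDH18A1 ranged from -0.024 to 0.023, PYCR3 from -0.085 to 0.044 and OAT from -0.12 to 0.056, and PYCR1 from -0.089 to 0.061 in DMSO over W. In NP minus MET, ASNS ranged from -0.14 to 0.22, PYCR3 from -0.067 to 0.015 and OAT from -0.11 to 0.018, and in NP minus PHEN, ALDH18A1 from -0.082 to 0.14 and PYCR1 from -0.10 to 0.15. Without the replicate block, ASNS in PHEN over W had an adjusted p of 0.290 in limma's test. Dim signal over background limits PRODH and the second probes.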
